A study of Homo sapiens with 7 samples.

Results

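The S100 proteins described here are 10 genes of the family of small calcium-binding proteins, taken by name from the 60234 genes of the deposited expression table, namely S100A8, S100A9, S100A1, S100A4, S100A6, S100A10, S100A11, S100A13, S100A16 and S100B. S100A8 was chosen by its TPM in the comparison below, where it rose, so its values are a description and carry no test, and the other 9 were taken as members of its family. Expression was measured by sequencing poly-A RNA of cardiomyocytes differentiated from WTC-11, an established human induced pluripotent stem cell line which serves as a culture model of heart muscle. The cells had matured for 35 days and then took up an ASO, an antisense oligonucleotide built to base-pair with one transcript, without a transfection step, at 2 uM for 96 h. The scrambled ASO group, the control, has 3 libraries, and the group given an ASO against MYH7B has 4. The study asked what the MYH7B transcript does as a regulatory RNA in heart cells. Levels are in TPM, a transcript abundance scaled for gene length to a fixed total in each library.

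S100 proteins carry a pair of EF-hand calcium-binding loops and work mostly as dimers that bind partner proteins when calcium rises. S100A8 and S100A9 form calprotectin, abundant in neutrophils and monocytes and induced in inflamed epithelium, which binds calcium and zinc and signals through the receptors TLR4 and AGER. S100A1 is known as the S100 protein of heart muscle, where it binds the calcium release channel RYR2 and the calcium pump ATP2A2, and S100A10 is the exception that no longer binds calcium and holds annexin A2 in a complex at membranes.

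Scrambled ASO replicates 1 to 3 were compared with MYH7B ASO replicates 2 to 4. The column of MYH7B ASO replicate 1 does not follow the row order of the table. It was put back in order with the gene list of GENCODE 29, which raised its median correlation with the other libraries from 0.408 to 0.955, and is given beside the others but stays out of the main comparison. MYH7B, the ASO target, was at 23.0, 36.5 and 25.1 TPM in scrambled ASO replicates 1 to 3 and at 9.30, 5.65 and 6.31 TPM in MYH7B ASO replicates 2 to 4, with 1.29 TPM in replicate 1. Between 15290 and 16207 genes reached 1 TPM in each of these 6 libraries. The mitochondrial genome supplied 27.4% to 33.6% of their TPM, and cardiomyocyte markers such as TNNT2 (933 to 1324 TPM) were abundant. In MYH7B ASO replicate 1 the mitochondrial share was 17.2%. No label says that the libraries of a group came from separate differentiations, so p-values measure the spread between these libraries, which may be technical.

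Of the 10 genes, 9 lie on chromosome 1 with 8 other S100 genes, and S100B lies on chromosome 21. S100A8 (ENSG00000143546.10) spans chr1:153390032-153391188 on the minus strand and S100A9 (ENSG00000163220.11) spans chr1:153357854-153361027 on the plus strand in GENCODE 29 on GRCh38, 29004 bases apart. The 250 bases before the start site of S100A8, S100A9 and S100A10 are shown because they belong to the member picked for its rise, to its dimer partner that stayed near 0 and to the most abundant member. They are RefSeq sequences on GRCh38.p14, 5′ to 3′ on the strand of the gene, with any TATAAA in capitals. S100A8 has 3 listed start sites, and the one 29 bases after the first base of TATAAA is shown. The windows are chr1:153391074-153391323 (minus strand), chr1:153357604-153357853 (plus strand) and chr1:151993860-151994109 (minus strand).
S100A8: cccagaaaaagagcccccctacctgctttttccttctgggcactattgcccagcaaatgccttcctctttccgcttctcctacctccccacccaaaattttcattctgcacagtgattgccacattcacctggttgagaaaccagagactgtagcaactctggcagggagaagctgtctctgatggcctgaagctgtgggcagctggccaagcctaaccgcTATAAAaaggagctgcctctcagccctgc
S100A9: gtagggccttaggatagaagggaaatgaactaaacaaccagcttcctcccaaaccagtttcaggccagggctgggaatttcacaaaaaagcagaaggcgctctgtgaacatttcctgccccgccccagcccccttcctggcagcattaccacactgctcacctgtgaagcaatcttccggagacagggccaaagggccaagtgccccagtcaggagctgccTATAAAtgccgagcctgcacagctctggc
S100A10: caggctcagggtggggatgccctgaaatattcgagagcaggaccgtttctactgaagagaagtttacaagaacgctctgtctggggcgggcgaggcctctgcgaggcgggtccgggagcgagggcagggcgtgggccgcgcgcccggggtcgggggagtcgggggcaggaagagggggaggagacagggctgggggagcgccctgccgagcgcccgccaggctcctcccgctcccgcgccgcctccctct

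RefSeq gave 14 such windows for 9 of the 10 members, S100B not among them. TATAAA, searched on both strands, was present in 10.7% of all 35114 windows of this length. On the strand of the gene it stood 29 bases before the start in S100A8 and also 29 bases before it in S100A9, and windows of S100A4 and S100A13 held it too. S100A10 and S100A6, the most abundant members, had none and held 24 CpG dinucleotides each in 250 bases, against 2 in S100A8, 4 in S100A9 and a median of 11 over all windows. The CpG number did not follow abundance in all members. S100A16, at a mean of 47.7 TPM over the 6 libraries, had 1 and 6 in its windows. S100A4 had 7, S100A1 had 6, S100A11 had 15, and the windows of S100A13 had 15, 10 and 8. The GC box GGGCGG, found on either strand in 42.6% of all windows, was present in S100A9, S100A6, S100A10 and S100A11 and in 1 window each of S100A13 and S100A16. TTGCNNAA (9.05% of all windows) occurred in S100A11 only, GGAATG (11.9%) in 1 window of S100A16 only, and TTCNNNGAA (6.57%) in no member. These are matches of letters within the windows and say nothing of which factors bind there.

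S100A8 was listed at 0 TPM in scrambled ASO replicate 1, at 3.0 TPM in replicate 2 and at 0.248 TPM in replicate 3. With the MYH7B ASO it was at 40.2, 24.7 and 7.59 TPM in replicates 2, 3 and 4. The groups did not overlap, and the lowest MYH7B ASO library stood 2.53-fold above the highest scrambled ASO library. The MYH7B ASO libraries spanned a wide range, with replicate 2 high and replicate 4 low. The S100A8 mean went from 1.08 ± 1.67 TPM (SD, n = 3 controls) to 24.2 ± 16.3 TPM (SD, n = 3), a log2 difference of 3.61 on the log2(TPM + 1) scale. Most of the scrambled ASO mean came from replicate 2, without which the log2 difference was 4.22. The value depended on the pseudocount, with 5.37 at a pseudocount of 0.1 and 2.11 at 5. In the reordered MYH7B ASO replicate 1 S100A8 was at 13.4 TPM, also above every scrambled ASO library. S100A8 had a mean normalized count of 55.1 and a shrunken log2 fold change of 0.73 with a standard error of 0.21 in the authors' deposited table. As a share of the TPM of all 21 S100 genes, S100A8 took 1.44% to 5.88% in the MYH7B ASO libraries and at most 0.506% in the scrambled ASO libraries.

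S100A9, the dimer partner of S100A8, was near 0 in both groups. It was at 0.0810 TPM in scrambled ASO replicate 1 and listed at 0 in replicates 2 and 3. With the MYH7B ASO it was at 0.252, 0.0870 and 0 TPM in replicates 2, 3 and 4, and it was listed at 0 in the reordered replicate 1. S100A8 was above S100A9 in TPM in all 3 MYH7B ASO libraries of the comparison and in the reordered replicate 1. The same held in scrambled ASO replicates 2 and 3, but not in scrambled ASO replicate 1. S100A9 had a mean below 1 TPM, so it did not pass the filter and was not tested. S100A12, the third S100 gene known for high levels in neutrophils and placed between S100A9 and S100A8 on the chromosome, was listed at 0 in all 6 libraries and was at 1.28 TPM in the reordered replicate 1. S100A7A, S100A7L2 and S100A7, next on the other side of S100A8, were also listed at 0 in all 6.

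**Figure D1:**
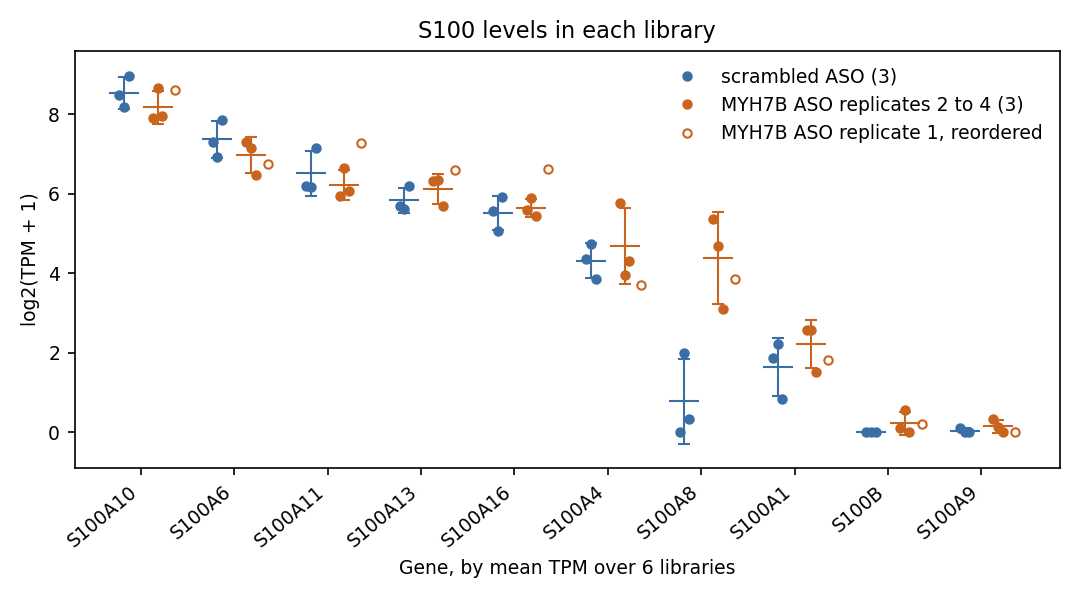
Level of each member as log2(TPM + 1), one point per library, with the group mean and SD as bars and the reordered MYH7B ASO replicate 1 as open circles; n = 3 per group. S100A8 is the member whose groups are apart, at 0 to 3.0 TPM against 7.59 to 40.2 TPM, while S100A9 stays at or near 0 in both groups.

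A gene was called where its limma adjusted p was under 0.05 (Benjamini-Hochberg over all genes), which held for 265 of 15988 genes, or 1.66%. Of all genes 0.181% were called higher with the MYH7B ASO and 1.48% lower. Apart from S100A8, 7 of the other 9 members had a mean of at least 1 TPM and were tested, and 0 of the 7 were called by limma. At an unadjusted p under 0.05 there were also 0 of 7, where 15.2% of all genes passed. Their adjusted p-values ran from 0.556 to 0.829 in limma, and their median log2 fold change was 0.13, against -0.044 over all tested genes. The groups overlapped for each of the 7, whereas they did not overlap for 21.2% of all tested genes (7.11% higher and 14.1% lower with the MYH7B ASO). In the authors' deposited table, where 8.71% of genes with an adjusted p-value were under 0.05, 0 of the same 7 were, with adjusted p-values from 0.412 to 0.722. A change that misses the threshold is not shown to be absent, so the 95% intervals of the differences (unadjusted, from limma) are given below.

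S100A1, the heart muscle member, was low in these cells. It was at 2.66, 3.69 and 0.784 TPM in scrambled ASO replicates 1 to 3 and at 4.95, 4.89 and 1.87 TPM in MYH7B ASO replicates 2 to 4. The groups overlapped, with scrambled ASO replicate 3 and MYH7B ASO replicate 4 the low libraries of each. The log2 difference was 0.57 with a standard error of 0.44 and a 95% interval from -0.43 to 1.57 (limma adjusted p = 0.587). It was 0.17 without scrambled ASO replicate 3 and 0.92 without MYH7B ASO replicate 4. The exons of S100A1 overlap those of S100A13 on the opposite strand, and whether reads were counted by strand is not given in the sources used here, so reads of the pair may not be told apart.

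The 3 most abundant members, S100A10, S100A6 and S100A11, stood higher in the scrambled ASO mean, while S100A13 and S100A16, next in abundance, did not. S100A10, the annexin A2 partner, was at 358, 287 and 502 TPM in the controls and at 240, 404 and 249 TPM after the MYH7B ASO. Its log2 difference was -0.37, with a 95% interval from -0.95 to 0.22 (limma adjusted p = 0.556). S100A10 alone made up 35.0% to 50.5% of the TPM of all S100 genes.

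S100A6, or calcyclin, a partner of the ubiquitin ligase adaptor CACYBP, was at 157, 121 and 232 TPM with the scrambled ASO and at 156, 142 and 87.1 TPM with the MYH7B ASO. The log2 difference of S100A6 was -0.39, with a 95% interval from -1.04 to 0.25 (limma adjusted p = 0.566), and its exons overlap an antisense transcript. S100A11, which binds annexin A1 and has processed pseudogene copies, was at 72.9, 70.7 and 142 TPM and at 60.4, 98.8 and 66.0 TPM. Its log2 difference was -0.30, with a 95% interval from -0.97 to 0.38 (limma adjusted p = 0.677). Scrambled ASO replicate 3 was the highest of the 6 libraries for S100A10, S100A6 and S100A11 alike. Without it the log2 differences were -0.15, -0.15 and 0.030.

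The same library had the highest summed TPM of the 9 fibroblast markers, 5255 TPM, against 2908 and 3059 TPM in the other scrambled ASO libraries and 1366 to 2103 TPM in MYH7B ASO replicates 2 to 4. The reordered replicate 1 had 4159 TPM. All 9 fibroblast markers were tested and 2 were called lower, COL1A2 and LUM, where 1.48% of all genes were, with none at 0. COL1A2 and LUM were at 629 and 43.8 TPM in the reordered replicate 1, inside their control ranges. The list did not move one way. PDGFRA and TCF21 had higher means with the MYH7B ASO, by 0.60 and 0.71 on the log2 scale (limma adjusted p = 0.152 and 0.168). Their groups did not overlap over the 6 libraries. In the reordered replicate 1 PDGFRA was at 26.5 TPM, inside the control range, and TCF21 at 17.5 TPM, above every control. The 4 smooth muscle markers summed to 934 to 1330 TPM with the scrambled ASO and to 543 to 723 TPM in MYH7B ASO replicates 2 to 4, with 1 of 4 called lower, MYH11, against the same 1.48%. In the reordered replicate 1 the sum was 1075 TPM, inside the control range, and MYH11 was at 13.4 TPM, below every control. CNN1, another of the 4, had a higher mean with the MYH7B ASO, by 0.24 on the log2 scale (limma adjusted p = 0.454). Fewer cells of such a type and less RNA per cell cannot be told apart in bulk RNA, and the part of these cells in the S100 levels was not tested.

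S100A13, which takes part in the release of FGF1 from cells, was at 50.3, 47.9 and 72.6 TPM with the scrambled ASO and at 79.1, 80.3 and 50.9 TPM with the MYH7B ASO. Its log2 difference was 0.29, with a 95% interval from -0.23 to 0.81 (limma adjusted p = 0.595). S100A16, a broadly expressed member, was at 46.0, 32.5 and 59.1 TPM and at 46.9, 58.8 and 42.6 TPM, a log2 difference of 0.13 with a 95% interval from -0.39 to 0.66 (limma adjusted p = 0.829). For both genes the groups overlapped, and the sizes left possible by these intervals are below a doubling.

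S100A4, also known as fibroblast-specific protein and a binder of the nonmuscle myosin MYH9, was at 19.4, 25.6 and 13.4 TPM with the scrambled ASO. With the MYH7B ASO it was at 53.7, 14.6 and 18.9 TPM in replicates 2, 3 and 4, so that replicate 2 alone lay above the scrambled ASO range. The log2 difference was 0.37, with a 95% interval from -0.64 to 1.39 (limma adjusted p = 0.736), and without that library it was -0.17. S100A3 lies within the span of S100A4 on the same strand, with no exon of theirs overlapping, and reached at most 0.464 TPM in the 6 libraries and 1.19 TPM in the reordered replicate 1. MYH7B ASO replicate 2 was the highest library for S100A8 as well as for S100A4. S100B, the glial member, was listed at 0 in all 3 scrambled ASO libraries and in MYH7B ASO replicate 4 and at 0.0806 and 0.473 TPM in replicates 2 and 3, too low to test.

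**Figure D2:**
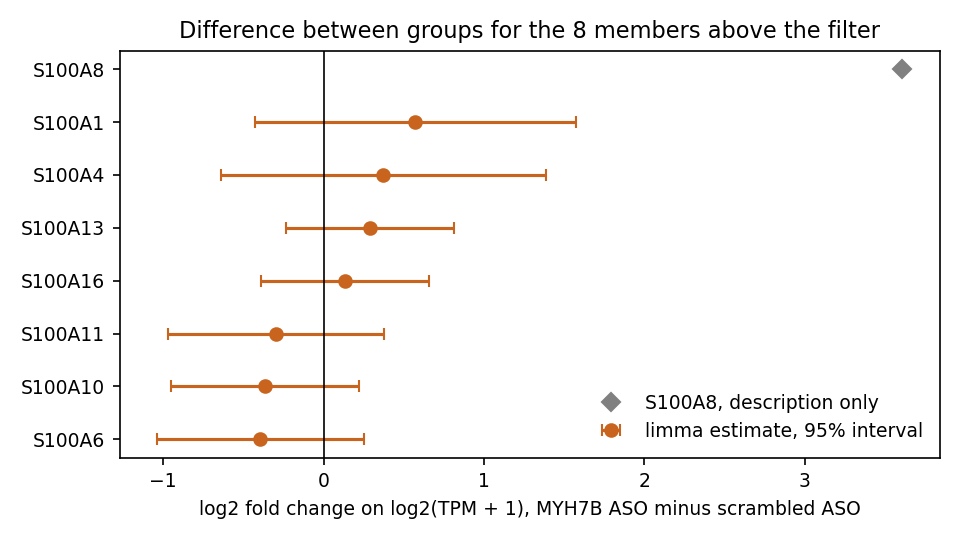
Difference between groups on the log2(TPM + 1) scale for the 8 members with a mean of at least 1 TPM, with the 95% interval from limma for the 7 tested members and S100A8 as a point with no interval. Each of the 7 intervals includes 0, and S100A8 stands at 3.61.

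By mean TPM over the 6 libraries the order was S100A10, S100A6, S100A11, S100A13, S100A16, S100A4, S100A8, S100A1, S100B and S100A9. The libraries of S100A10 lay wholly above those of S100A6, and those of S100A1 wholly above those of S100B. For the other neighbours in this order the ranges over libraries overlapped. S100A8 was above S100A1 in 3 of 6 libraries, the 3 given the MYH7B ASO. The summed TPM of the 21 S100 genes was 776 ± 225 (SD, n = 3) in the controls and 680.5 ± 152 (SD, n = 3) after the MYH7B ASO, a difference smaller than the spread between libraries.

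The other 11 S100 genes were mostly silent. In all 6 libraries 7 were listed at 0, namely S100A7, S100A7A, S100A7L2, S100A12, S100P, S100Z and S100G. S100A14, known from epithelia, was the only other one with a mean of at least 1 TPM. It was at 1.09, 1.21 and 1.17 TPM with the scrambled ASO and at 0.522, 1.43 and 1.39 TPM with the MYH7B ASO, a log2 difference of -0.060 (limma adjusted p = 0.958). S100A2 ran from 0 to 2.04 TPM, S100A5 reached 0.682 TPM in a single library, and neither was tested. The fused S100 genes of the same chromosome region (7 genes of the skin barrier, filaggrin among them) summed to at most 0.0820 TPM in any of the 6 libraries, and none was tested.

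**Figure D3:**
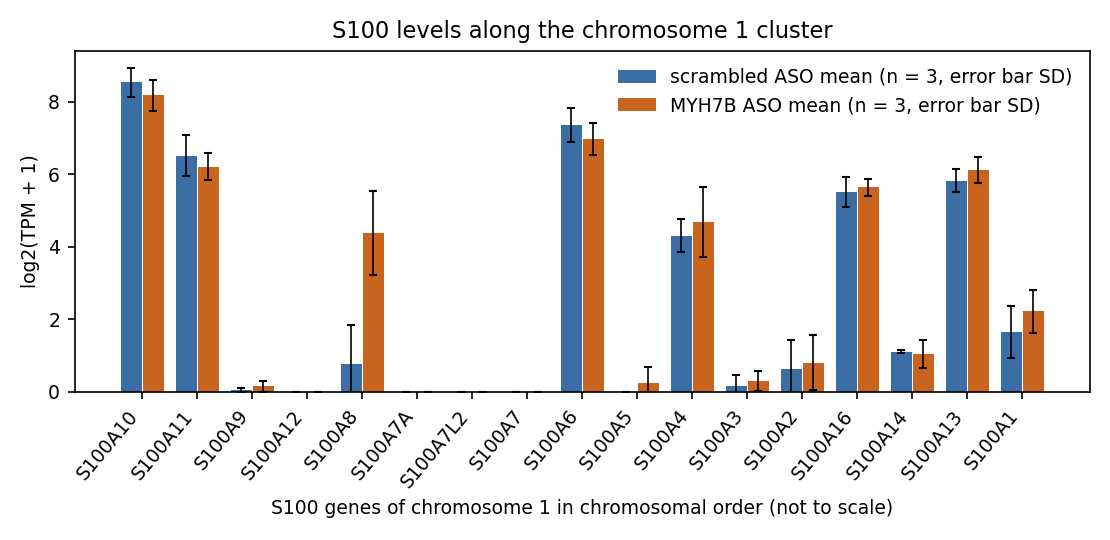
Mean log2(TPM + 1) of the 17 S100 genes of chromosome 1 in chromosomal order, with SD as error bars and n = 3 per group. S100A8 stands between genes listed at 0 or near it, while the members from S100A6 onward and S100A10 and S100A11 at the other end are expressed in both groups.

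Calprotectin is known from myeloid cells and from stressed keratinocytes, so the markers of both were read beside S100A8. Of the 15 myeloid markers 6 were listed at 0 in all 6 libraries (PTPRC, ITGAM, FCGR3B, MPO, ELANE and TYROBP), and 3 were expressed highly enough to test, with 0 called in limma and 1 of 3 at an unadjusted p under 0.05, against 1.66% and 15.2% of all genes. The myeloid list summed to 9.94 to 14.4 TPM with the scrambled ASO and to 7.79 to 9.56 TPM with the MYH7B ASO, with 7.49 TPM in the reordered replicate 1. Most of that difference was in AIF1, the gene with that unadjusted p, whose mean was 6.17 TPM with the scrambled ASO and 3.02 TPM with the MYH7B ASO, and in LYZ, at 3.21 and 1.59 TPM. Others had higher means with the MYH7B ASO, CSF3R at 1.24 and 1.84 TPM, SPI1 at 0.317 and 0.638 TPM, LST1 at 0.124 and 0.660 TPM and CD14 at 0.0189 and 0.163 TPM, each with overlapping groups. The part of myeloid cells in the S100A8 level was not tested. The 11 keratinocyte and squamous markers summed to 18.3 to 22.7 TPM and to 11.1 to 16.9 TPM, with 30.5 TPM in the reordered replicate 1, above every control. Of 4 tested genes 0 were called in limma and 1, CDH1, had an unadjusted p under 0.05, against 1.66% and 15.2% of all genes. CDH1 held most of the list's TPM, with means of 14.5 and 7.41 TPM. None of these 11 was at 0 in all 6 libraries. The stress keratins were near 0, KRT6A with means of 0.0405 and 0.0318 TPM and KRT16 with means of 0.0130 and 0.0818 TPM. TP63, at 0.00853 and 0.136 TPM, SFN, at 0.153 and 0.257 TPM, and EPCAM, at 1.39 and 2.06 TPM, had higher means with the MYH7B ASO, and of these TP63 had groups that did not overlap over the 6 libraries. In the reordered replicate 1 TP63 was listed at 0, while SFN and EPCAM were at 0.431 and 2.83 TPM, above every control. The part of such cells in the S100A8 level was not tested.

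Genes of the inflammatory response, known inducers and companions of calprotectin, were read next. Of 30 listed genes 14 were tested and 0 were called by limma, with 1 at an unadjusted p under 0.05 (NFKB2, log2 difference 0.44, named after its values were seen), against the 1.66% and 15.2% of all genes. Their median log2 fold change was 0.13, against -0.044 over all tested genes, with 8 above 0 and 6 below. The 30 genes summed to 298.6 to 371.8 TPM with the scrambled ASO and to 294.9 to 349.5 TPM with the MYH7B ASO. The reordered replicate 1 had 383.6 TPM, above every control. The 4 tested genes with the largest differences were lower in the MYH7B ASO mean. The chemokine CCL2 was at 16.9, 11.2 and 28.5 TPM with the scrambled ASO and at 11.5, 9.19 and 11.3 TPM with the MYH7B ASO, a log2 difference of -0.68 (limma adjusted p = 0.330). The log2 differences of IL1B, NFKB1 and ICAM1 were -0.63, -0.57 and -0.49 (limma adjusted p = 0.522, 0.443 and 0.443). Leaving out scrambled ASO replicate 3 brought CCL2 to -0.35 and ICAM1 to -0.28. Leaving out scrambled ASO replicate 1 brought IL1B to -0.31 and NFKB1 to -0.25. ICAM1 was above every control in the reordered replicate 1, at 11.995 TPM. CCL2 and IL1B were below every control there, at 9.49 and 1.48 TPM, and NFKB1, at 5.16 TPM, was inside the control range. With 7 libraries the log2 differences of ICAM1, CCL2, IL1B and NFKB1 were -0.17, -0.72, -0.63 and -0.55. Among the genes too low to test, named after their values were seen, CXCL1 was listed at 0 in all 3 controls and was at 0.429, 0.836 and 0.112 TPM with the MYH7B ASO. In the reordered replicate 1 CXCL1 was listed at 0. Mean CXCL6 was 0.193 and 1.34 TPM, SAA2 0.193 and 0.857 TPM and LCN2 0.0244 and 0.217 TPM, with overlapping groups, while mean CCL20 was 1.55 and 0.120 TPM, without overlap over the 6 libraries. In the reordered replicate 1 CCL20 was at 0.930 TPM, inside the control range. CXCL6, SAA2 and LCN2 were above every control there, at 0.981, 3.66 and 1.18 TPM. CEBPB, a factor known to act at the S100A8 and S100A9 genes and named here after its values were seen, was at 7.77, 9.47 and 15.9 TPM and at 14.4, 16.8 and 13.4 TPM. Its groups overlapped, and its log2 difference was 0.45 (limma adjusted p = 0.452). CEBPB was at 37.8 TPM in the reordered replicate 1, above every control.

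Among the receptors of calprotectin, TLR4 was at 0.155 to 0.455 TPM with the scrambled ASO and at 0.0466 to 0.215 TPM with the MYH7B ASO, too low to test. AGER, the receptor for advanced glycation end products, was at 3.24, 1.05 and 3.39 TPM and at 1.86, 2.39 and 1.94 TPM, a log2 difference of -0.14 with a 95% interval from -0.95 to 0.68 (limma adjusted p = 0.892).

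Of the 23 listed partners and receptors of S100 proteins, 22 were tested and 0 were called by limma, although 7 of 22 had an unadjusted p under 0.05, against 15.2% of all genes. Their median log2 fold change was -0.28, with 18 of 22 below 0. RYR2, the calcium release channel bound by S100A1, was at 37.9, 37.2 and 27.3 TPM with the scrambled ASO and at 18.01, 12.4 and 18.3 TPM with the MYH7B ASO. The groups of RYR2 did not overlap, and its log2 difference was -1.03 with a standard error of 0.21. It stood just outside the threshold (limma adjusted p = 0.0536), passing when genes under 5 TPM were left out (0.0267) and in none of the other alternatives. The highest limma adjusted p there, 0.722, came from a fit blocked by replicate number. In the reordered replicate 1 RYR2 was at 4.39 TPM, the lowest of all libraries. With all 7 libraries its log2 difference was -1.45 (limma adjusted p = 0.169). ATP2A2, the calcium pump bound by S100A1, had a mean of 415 ± 51.9 TPM (SD, n = 3) in the controls and 403 ± 26.5 TPM (SD, n = 3) after the MYH7B ASO, a difference within the spread.

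The annexin partners differed among themselves. ANXA11, which binds S100A6, was at 70.4, 49.1 and 76.5 TPM with the scrambled ASO and at 31.1, 36.6 and 36.7 TPM with the MYH7B ASO. Its groups did not overlap and its log2 difference was -0.87 (limma adjusted p = 0.0708). It passed when genes under 5 TPM were left out (0.0413) and without scrambled ASO replicate 2 (0.0395), and in none of the other alternatives. The highest limma adjusted p there, 0.729, came from a fit blocked by replicate number. In the reordered replicate 1 ANXA11 was at 53.8 TPM, above the lowest control, and the adjusted p with 7 libraries was 0.219. ANXA2, the partner of S100A10, was at 292, 242 and 389 TPM and at 239, 293 and 224 TPM, a log2 difference of -0.27 (limma adjusted p = 0.563). Scrambled ASO replicate 3 was the highest of the 6 libraries for ANXA2 and also for S100A10. ANXA1 and ANXA6 had log2 differences of -0.61 and -0.28 (limma adjusted p = 0.480 and 0.378), and the groups of ANXA6 did not overlap. Leaving out scrambled ASO replicate 3 brought ANXA2 to -0.087 and ANXA1 to -0.24. ANXA2 and ANXA1 were above every control in the reordered replicate 1, at 410 and 71.8 TPM, and ANXA6, at 147 TPM, was below every control. With 7 libraries the log2 differences of ANXA2, ANXA1 and ANXA6 were -0.092, -0.23 and -0.33.

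FGF1, whose release S100A13 takes part in, was at 2.38, 1.34 and 3.41 TPM with the scrambled ASO and at 0.851, 0.973 and 0.540 TPM with the MYH7B ASO, a log2 difference of -0.88 (limma adjusted p = 0.300). SYT1, a synaptic vesicle calcium sensor that joins S100A13 and FGF1 in that release complex, had a log2 difference of -0.85 (limma adjusted p = 0.266). The groups of both did not overlap over the 6 libraries, but in the reordered replicate 1 FGF1 was at 2.78 TPM and SYT1 at 2.62 TPM, inside the control ranges. With 7 libraries the log2 differences were -0.61 and -0.65 (limma adjusted p = 0.540 and 0.443).

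Other EF-hand calcium binders were taken for comparison, calmodulins and neuronal calcium sensors among them. Of 33 listed genes 31 were tested and 0 were called by limma, with 5 at an unadjusted p under 0.05, a share near the 15.2% of all genes, and their median log2 fold change was 0.094 with 18 above 0 and 13 below. VSNL1, a neuronal calcium sensor also found in heart, had the largest difference, from 31.0, 28.4 and 35.2 TPM to 8.35, 21.5 and 22.1 TPM, a log2 difference of -0.94 (limma adjusted p = 0.228) that came to -0.51 without MYH7B ASO replicate 2. The calpain CAPN2 and the reticulum protein CALU had log2 differences of -0.61 and -0.58 (limma adjusted p = 0.163 and 0.226), and HPCAL1 one of -0.54 (limma adjusted p = 0.436). The unadjusted 5 were VSNL1, CAPN2 and CALU, lower, and GCA and NCS1, higher in the MYH7B ASO mean by 0.52 and 0.46 on the log2 scale, the last pair named after their values were seen. The groups of GCA overlapped over the 6 libraries and those of NCS1 did not. GCA was at 8.67 TPM in the reordered replicate 1, below every control, and NCS1 at 38.9 TPM, above every control. VSNL1 and CALU were below every control there, at 14.9 and 93.5 TPM. CAPN2, at 65.3 TPM, was inside the control range, and HPCAL1, at 26.7 TPM, was above every control.

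The genes whose pattern over the 6 libraries was most like that of S100A8 were found by the root mean square difference between z-scored log2(TPM + 1) values, out of 15987 genes. They were SPSB4 (0.106), PHYHIP (0.108), STAC2 (0.119), EIF3B (0.139) and SMARCD3 (0.144). The measure compares shapes and not sizes. SPSB4, a substrate adaptor of ubiquitin ligases, went from 8.38, 9.95 and 8.37 TPM to 15.1, 13.9 and 12.2 TPM. Scrambled ASO replicate 2 was its highest control and MYH7B ASO replicate 2 the highest of all, as for S100A8. The search itself favours this order and also the rise with the MYH7B ASO, for each gene found. In the reordered replicate 1, outside the search, SPSB4 was at 9.79 TPM and STAC2 at 0.700 TPM, neither above every control. PHYHIP, EIF3B and SMARCD3 were above every control there, at 3.87, 117 and 88.2 TPM, as were 30.0% of all tested genes with a value in it. SMARCD3, a chromatin remodelling subunit of heart muscle, went from 68.4, 76.1 and 68.9 TPM to 92.7, 86.6 and 83.7 TPM.

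**Figure D4:**
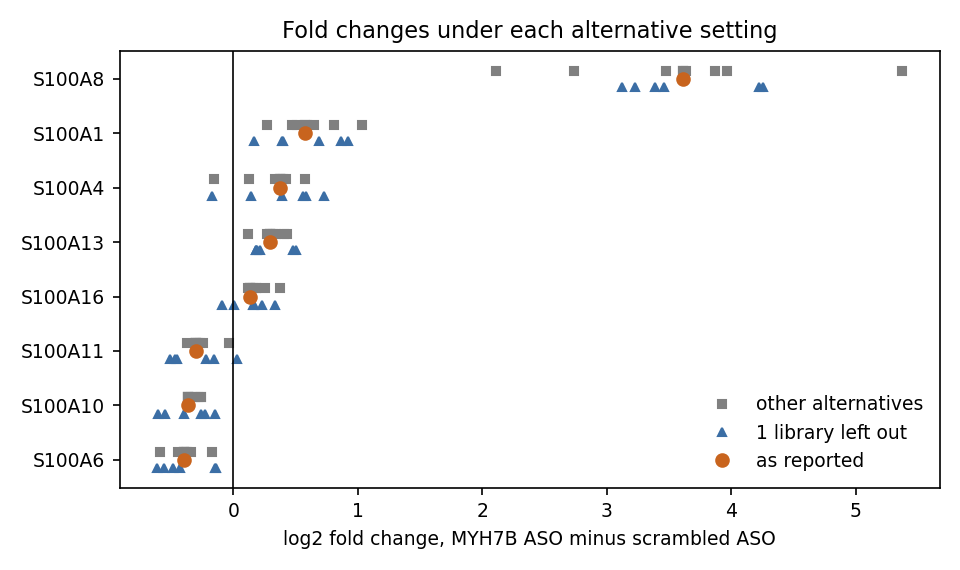
Log2 difference between groups for each tested member and S100A8 as reported and under each alternative, where squares are other settings and triangles leave out 1 library. S100A8, picked for its rise, stays between 2.11 and 5.37, and S100A4, S100A16 and S100A11 cross 0.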

How the data were processed

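Poly-A RNA of 7 libraries was compared, of which 6 entered the main comparison. The authors deposited TPM per gene and library, and each column sums to 1000000, which leaves the depth unknown, and counting error could not be computed. The submitters' processing notes name GRCh38.p13 and DESeq2, and the aligner and annotation are not given in the sources used here. The authors' deposited comparison table gives a mean normalized count (a signal over libraries), a log2 fold change that its name calls shrunken, a test score, p-values and adjusted p-values. Which libraries entered it is not given in the sources used here.

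TPM was taken as log2(TPM + 1). Genes that averaged 1 TPM or more in the fitted libraries were tested with limma 3.58.1 (lmFit, eBayes with trend, no covariate) in R 4.3.3, with Benjamini-Hochberg adjustment over all genes and a threshold of 0.05. Depth is unknown, so no count test was run. The script was tested on simulated data. Exact permutation tests were not used, since 3 against 3 cannot pass 0.05. Where a symbol had more than 1 row, the lowest gene ID was used. MYH7B ASO replicate 1 was reordered by sorted GENCODE 29 gene IDs (58721 genes, as many as its filled positions), which placed 99.6% of its TPM. The lowest correlation among the other 6 libraries was 0.959, and none were duplicates (highest 0.979).

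The members and lists were chosen with earlier results of these data known. Genes named are the members, expressed S100 genes, called genes of 5 lists or else their 4 largest differences, annexins, TLR4 and AGER, 5 genes nearest to S100A8, and markers of cell types. Tables were handled in pandas 2.3.3 and numpy 2.4.6 under Python 3.11.15, and plots drawn in matplotlib 3.10.9. The alternatives were other pseudocounts, filters, scalings and variance settings, replicate blocks, 7 libraries, and each library left out.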

Additional observations from a re-analysis of the deposited data

Results flagged for a closer look

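Over the 4 MYH7B ASO libraries, with the reordered replicate 1 included, 9 S100 genes were checked for a single distant value, which chance gives in about 1 of 20 groups. S100A4 had one, with 53.7 TPM in replicate 2 against 11.98 to 18.9 TPM in the others.

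MYH7B ASO replicate 1 took no part in the main comparison. In it S100A8, picked for its rise, was at 13.4 TPM, and 4 of the other 9 members also stood above every scrambled ASO library, S100A11 at 153 TPM, S100A13 at 95.8 TPM, S100A16 at 98.0 TPM and S100B at 0.145 TPM. Another 2, S100A6 at 107 TPM and S100A4 at 11.98 TPM, stood below every scrambled ASO library. Of 15852 tested genes with a value in this library, 30.0% stood above and 37.1% below all scrambled ASO libraries, so such a position is common in it. This library had a mitochondrial share of 17.2% of TPM, against 31.2% to 33.6% in the other MYH7B ASO libraries, and follows another annotation order, and the part of either in these levels was not tested.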

How the results depend on the processing

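The count of 0 called members held under all 16 alternatives in limma, including without a filter, where S100A9 and S100B were also tested, and the lowest adjusted p of a member was 0.339. At an unadjusted p under 0.05 there was 1 member without MYH7B ASO replicate 3 and 1 without replicate 4, and 0 under the others. S100A8, picked for its rise, had a log2 difference from 2.11 to 5.37 over settings and from 3.12 to 4.25 with 1 library left out. Its groups do not overlap, so no pseudocount and no left-out library could reverse its direction. Of all genes, 265 were called, against 40 with no filter, 150 with no variance trend, 170 with 7 libraries and 53 to 149 with 1 library left out (53 without MYH7B ASO replicate 4, 97 and 133 without scrambled ASO replicates 1 and 3, 107 and 116 without MYH7B ASO replicates 2 and 3, 149 without scrambled ASO replicate 2). The cause was not tested. Median-ratio rescaling called 57 higher and 224 lower, against 29 and 236. A replicate block, whether by title or by description number, left 0 genes called in limma (1718 and 1096 at an unadjusted p under 0.05). The groups share 2 numbers in either numbering, so only libraries of those numbers inform the difference in such a fit. Few residual degrees of freedom remain, so its count is not like those of the other alternatives. Deviations of same-numbered libraries correlated at 0.076 and 0.11 by title and at -0.073 and -0.039 by description. These few values, from deviations centred within each group, cannot tell whether same-numbered libraries were prepared together. The pairing is known by number only.

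Direction changed for genes that were not called. The log2 difference of AGER came to 0.056 when blocked by title number, 0.075 when blocked by description number, and ran from -0.50 to 0.054 with 1 library left out (0.028 and 0.054 without scrambled ASO replicates 1 and 3). S100A14 was 0.099 with 7 libraries, 0.14 with the block by description number and -0.18 to 0.16 with 1 library left out, highest without MYH7B ASO replicate 2. S100A4 was -0.15 with the block by description number and -0.17 to 0.73 with 1 library left out, lowest without MYH7B ASO replicate 2. S100A11 was -0.51 to 0.030, highest without scrambled ASO replicate 3, and S100A16 was -0.089 to 0.33, lowest without scrambled ASO replicate 2. The cause was not tested. TPM keeps no depth, so how far depth limits the low levels of S100A9 and S100B is unknown.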
